A study of Mus musculus with 8 samples.

Results

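Expression of 9 genes of the bile duct and of the Notch pathway was compared between livers with and without hepatocyte Zfp36l1. The 9 genes were chosen by symbol from the 25239 genes of the deposited count table, and all 9 were present and passed the filter on low counts. They are Sox9, Krt7, Krt19 and Epcam, which mark bile duct cells, the receptor genes Notch1 and Notch2, the ligand gene Jag1, and Hes1 and Hey1, which are targets of Notch signalling. RNA came from the livers of adult male mice. The 4 control libraries are titled Zf36l1 fl/fl, meaning loxP-flanked alleles, and carry WT in the genotype label. The 4 knockout libraries are titled Zfp36l1 fl/fl Alb-Cre+, so both groups carry the floxed alleles and Cre is named for the knockout group alone. Alb-Cre is a Cre recombinase under control of albumin regulatory DNA, which drives it in hepatocytes and in the precursor cells from which hepatocytes and bile duct cells arise. The sources used here do not state strain, age in weeks or diet.

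Bile duct cells (cholangiocytes) line the ducts of the portal tracts and form a small part of the liver. They express the keratins KRT7 and KRT19, the adhesion molecule EPCAM and the transcription factor SOX9. SOX9 is also made at a low level by hepatocytes next to the portal tract. In Notch signalling, a ligand such as JAG1 on one cell binds a NOTCH receptor on its neighbour, the gamma-secretase complex releases the intracellular part of the receptor, and this part joins the DNA-binding protein RBPJ to switch on targets such as Hes1, Hey1 and Sox9. Signalling from JAG1 in portal mesenchyme to NOTCH2 in liver precursor cells drives the formation of bile ducts. ZFP36L1, the protein deleted here, recognises AU-rich stretches in mRNA 3′ untranslated regions (UTRs) and speeds the decay of the bound mRNA.

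Total counts were 104842873 to 140582588 per library. Levels are given in CPM, counts scaled to the library size with TMM factors, as mean ± SD with n = 4 libraries per group. Where levels of different genes are compared they are CPM per kilobase of the deposited gene length. Each difference is a log2 fold change, positive where the knockout is higher, with its standard error (SE). Adjusted p-values are from the quasi-likelihood test of edgeR, adjusted by Benjamini-Hochberg over 14861 tested genes. Passing the test means adjusted p under 0.05. Whether each library is a different mouse is not stated in the labels, and p-values therefore measure the spread between libraries, which may be technical. Zfp36l1 itself (ENSMUSG00000021127.7, chromosome 12, 80107754 to 80113013, mm10) had 212.1 to 323.5 CPM in the control libraries and 57.9 to 76.9 CPM in the knockout libraries. Its level in the knockout group was 25.1% of the control level (log2 fold change −1.99, adjusted p = 0.000309).

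The AU-rich heptamer UAUUUAU, which ZFP36 family proteins bind, is the core sequence for which these 9 mRNAs were examined. It was searched, as TATTTAT on the sense strand with overlapping matches counted, in the longest annotated 3′ UTR of each gene (GENCODE M21, GRCm38, the assembly of mm10). It was present in 4 of the 9 genes, Sox9, Krt7, Notch1 and Jag1, and in 29.8% of 13707 tested genes with a 3′ UTR of at least 20 bases. Jag1 held 5 matches in 1568 bases, and 0.2% of the 500 tested genes nearest to it in 3′ UTR length held as many. Notch1 held 4 in 1628 bases (0.6% of the 500 nearest) and Krt7 held 4 in 2648 bases (1.8%). This Krt7 UTR is longer than the deposited gene length of 1586 bases, so the counts of Krt7 cannot have covered all of that UTR. Sox9 held 1 match in 2250 bases, and 43.8% of the 500 genes nearest in length held at least 1. The 3′ UTRs of Krt19 (103 bases), Epcam (660), Notch2 (2917), Hes1 (368) and Hey1 (1137) held 0 matches. The share of the genes nearest in length that held the heptamer was 3.6% for Krt19 and 52.6% for Notch2. The single Sox9 match and the matches of Jag1 and Notch1 are printed here 5′ to 3′ as DNA, with the heptamer in capitals and 8 bases on each side, because Sox9 had the lowest and Jag1 the highest log2 fold change of the 9 genes and Notch1 was the receptor gene with matches. Where 2 matches overlap they are shown as 1 stretch.
Sox9, chr11:112786752-112786774, plus strand: gctaaaatTATTTATtttgtaag
Jag1, chr2:137082661-137082689, minus strand, 2 matches: catagtttTATTTATATTTATtgactctt
Jag1, chr2:137082543-137082565, minus strand: gactttatTATTTATtttttttt
Jag1, chr2:137082336-137082358, minus strand: ttccttttTATTTATatgtatgt
Jag1, chr2:137081471-137081493, minus strand: aaaagtaaTATTTATtaaatttt
Notch1, chr2:26459359-26459385, minus strand, 2 matches: ttttttagTATTTATTTATgtactttt
Notch1, chr2:26459319-26459341, minus strand: tgccttttTATTTATatgtattg
Notch1, chr2:26459165-26459187, minus strand: atgctgttTATTTATtgattgct
A match describes the letters of these UTRs and does not show binding.

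Per kilobase, the receptors were the most abundant of the 9 genes in control livers and the duct markers other than Sox9 were among the least abundant. Notch2 had 8.03 ± 1.23 CPM per kilobase, followed by Notch1 (4.87 ± 1.12), Hes1 (4.71 ± 1.88), Sox9 (2.83 ± 0.406) and Jag1 (1.41 ± 0.269). Krt19 (0.394 ± 0.0346), Epcam (0.303 ± 0.0817), Krt7 (0.267 ± 0.0325) and Hey1 (0.224 ± 0.0762) came last. The ranges of the control libraries overlapped between Notch1 and Hes1, between Hes1 and Sox9, and between neighbours from Krt19 down to Hey1, so these neighbours were not ordered beyond their spread. The level of Sox9 per kilobase was thus 7.18 to 10.6 times those of Krt19, Epcam and Krt7 in control livers. In knockout livers it was 2.96 to 4.89 times as high. There Jag1 (2.22 ± 0.702 CPM per kilobase) stood above Sox9 (1.25 ± 0.478), with ranges that overlapped.

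The question was whether the fall of Sox9 was shared by the other duct markers and by the Notch genes. Of the 9 genes, 1 was lower in the knockout, Sox9, and 0 were higher, while 5.39% of all tested genes passed the test (3.51% higher and 1.88% lower). The other 8 genes did not pass it. At an unadjusted p under 0.05 the count was 2 of 9, Sox9 and Jag1, against 21.5% of all tested genes. The median log2 fold change of the 9 genes was −0.18, and that of all tested genes was −0.01. In bulk tissue, fewer cells of a type and less RNA per cell cannot be told apart.

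**Figure D1:**
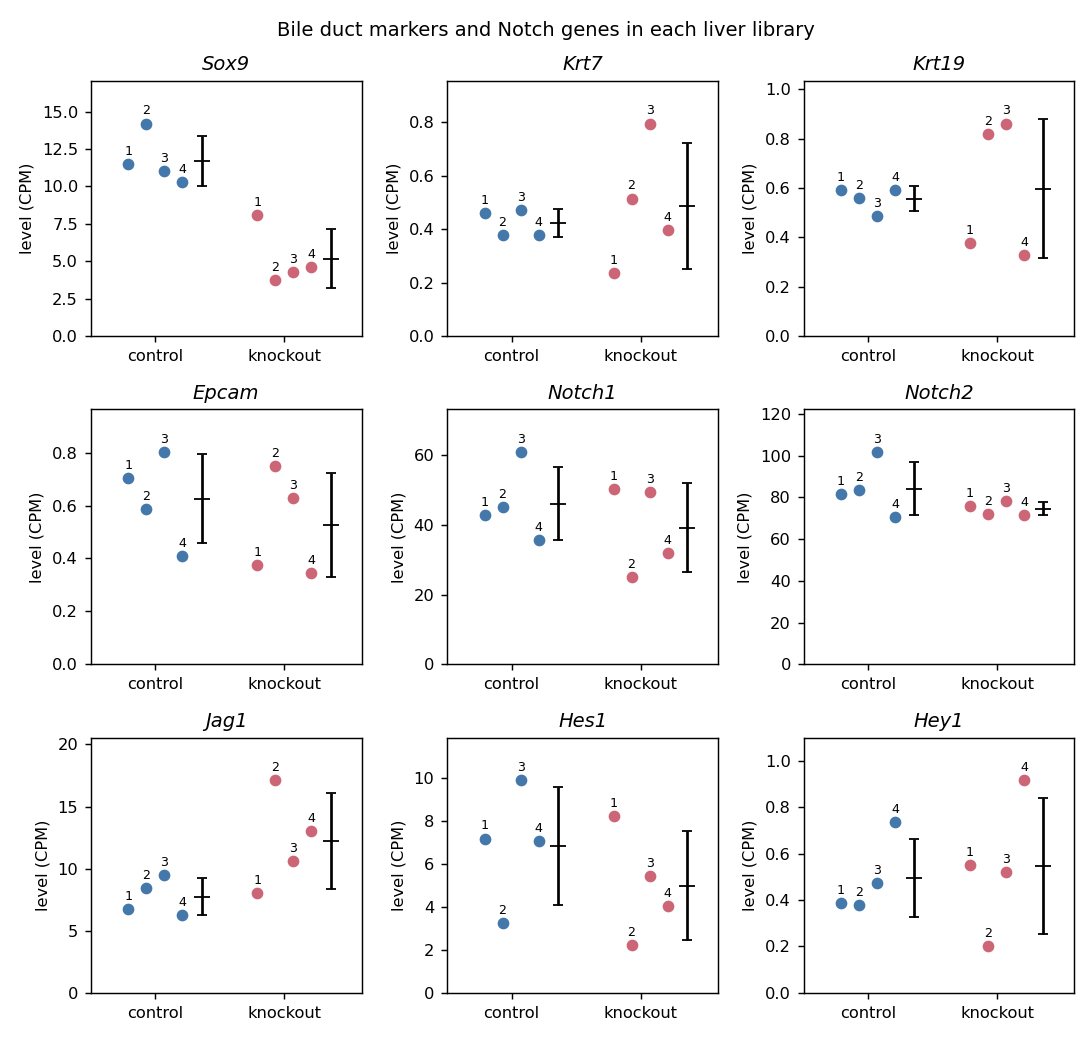
Level of each gene in CPM (vertical axes, each starting at 0) in the 4 control (blue) and 4 knockout (red) libraries, numbered by replicate, with black bars for mean ± SD. The groups are separate for Sox9, from 3.73 to 8.09 CPM in the knockout and from 10.3 to 14.2 CPM in the control libraries, and overlap for the other 8 genes.

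Sox9 (ENSMUSG00000000567.5, chromosome 11, 112782224 to 112787760, plus strand, mm10) had 11.5, 14.2, 11.0 and 10.3 CPM in control libraries 1 to 4. Knockout libraries 1 to 4 had 8.09, 3.73, 4.27 and 4.58 CPM. All 4 knockout libraries were below every control library, and knockout library 1 was the closest to the controls. The group means were 11.7 ± 1.68 and 5.17 ± 1.98 CPM, a knockout level of 44% of control (log2 fold change −1.18, SE 0.23, 95% interval −1.71 to −0.66, adjusted p = 0.0242). Groups that did not overlap occurred in 1 of the 9 genes, against 15.1% of all tested genes (7.93% lower in the knockout). A fall of at least this size occurred in 60 tested genes (0.404%), of which 26 passed the test. The call depended on single libraries: it was lost in 5 of 8 fits that each left out 1 library, although the log2 fold change in those 5 fits was −1.19 to −1.06. These were the fits without control replicate 1 (adjusted p = 0.0637) or 2 (0.0622) or knockout replicate 2 (0.0544), 3 (0.0745) or 4 (0.0612). Without knockout replicate 1 the log2 fold change was −1.48 and adjusted p = 0.00236.

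None of the 3 epithelial markers passed the test. Their 95% intervals lay above the value of −1.18 for Sox9, and that of Epcam overlapped the interval of Sox9. Krt19 (chromosome 11, 100140810 to 100148665), the keratin most used to stain bile ducts, had 0.591, 0.561, 0.487 and 0.591 CPM in the control libraries. It had 0.377, 0.82, 0.861 and 0.33 CPM in the knockout libraries. Knockout libraries 2 and 3 were above all controls and knockout libraries 1 and 4 below all of them, so the spread widened while the means were 0.557 ± 0.049 and 0.597 ± 0.282 CPM (0.10, SE 0.33, adjusted p = 0.89; −0.01 with total counts alone). Krt7 (chromosome 15, 101411043 to 101430313), a keratin of simple and ductal epithelia, had 0.462, 0.379, 0.473 and 0.377 CPM in the control libraries. In the knockout libraries it had 0.236, 0.515, 0.796 and 0.398 CPM (0.20, SE 0.34, adjusted p = 0.775). Among the knockout libraries Krt7 was thus lowest in library 1, whereas Krt19 was lowest in library 4. Both were highest in library 3. Epcam (chromosome 17, 87635979 to 87651129), an epithelial cell adhesion gene, had 0.702, 0.585, 0.802 and 0.41 CPM in the control libraries. It had 0.377, 0.75, 0.629 and 0.345 CPM in the knockout libraries (−0.25, SE 0.32, 95% interval −0.96 to 0.46, adjusted p = 0.689). Epcam was below 0 in every alternative fit run for it, and did not pass in any. These levels rest on 30 to 119 counts per library, and since low values were mostly even, as when both mates of a pair are counted, on fewer fragments.

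The summed level of Krt7, Krt19 and Epcam was 1.75, 1.53, 1.76 and 1.38 CPM in control libraries 1 to 4 and 0.99, 2.08, 2.29 and 1.07 CPM in knockout libraries 1 to 4, with a mean of 1.61 in each group. Knockout libraries 2 and 3, which had the highest sums, had the lowest Sox9 levels. Mesothelial cells, which cover the liver surface, also express KRT7 and KRT19. The 6 mesothelial markers (Msln, Upk1b, Upk3b, Wt1, Gpm6a and Lrrn4), none of them at 0 in any library, summed to 4.96 to 6.81 CPM in the control libraries and to 3.84, 8.31, 13 and 7.8 CPM in knockout libraries 1 to 4. Of these 6 markers 0 passed the edgeR test (0 at an unadjusted p under 0.05 and 0 by DESeq2). Among the knockout libraries their sum was lowest in library 1 and highest in library 3, as was the level of Krt7. Krt19 was also highest in library 3 (0.861 CPM) but lowest in library 4 (0.33 CPM). The part of mesothelial cells in the keratin levels was not tested.

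**Figure D2:**
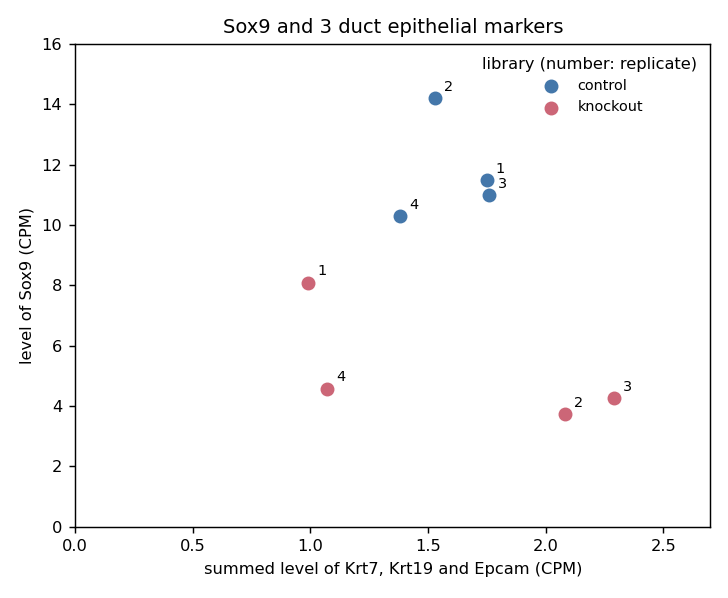
Level of Sox9 (vertical axis, CPM) against the summed level of Krt7, Krt19 and Epcam (horizontal axis, CPM) in each of the 8 libraries, numbered by replicate. Sox9 separates the control (blue) from the knockout (red) libraries, whereas the knockout sums from 0.99 to 2.29 CPM lie on both sides of the control sums from 1.38 to 1.76 CPM.

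Neither receptor passed the test. Notch2 (chromosome 3, 98013527 to 98150361), the main receptor of bile duct formation, had 81.6, 83.4, 101.8 and 70.6 CPM in control libraries 1 to 4. Its knockout levels of 76.0, 72.2, 78.3 and 71.6 CPM lay inside the control range. Its log2 fold change of −0.18 (SE 0.10, adjusted p = 0.353) had the narrowest 95% interval of the 9 genes, from −0.41 to 0.05. Notch1 (chromosome 2, 26457903 to 26516663), a receptor also used by endothelial and immune cells, had 43, 45.3, 61 and 35.7 CPM in the control libraries. It had 50.5, 25.1, 49.5 and 32.1 CPM in the knockout libraries (−0.23, SE 0.25, adjusted p = 0.626). Notch1 overlaps 0610009E02Rik on the opposite strand, and the strand setting of the counting is not known, so reads of this pair cannot be separated.

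The ligand gene had a higher mean in the knockout and did not pass the test. Jag1 (chromosome 2, 137081456 to 137116644) had 6.75, 8.47, 9.46 and 6.3 CPM in the control libraries. It had 8.04, 17.1, 10.6 and 13 CPM in the knockout libraries. Knockout libraries 2, 3 and 4 were above all controls, and knockout library 1, which kept the most Sox9, was inside the control range. The means were 7.75 ± 1.48 and 12.2 ± 3.86 CPM (0.65, SE 0.23, 95% interval 0.14 to 1.16, adjusted p = 0.134, unadjusted p = 0.0177). DESeq2 gave 0.66 with adjusted p = 0.0356, so the call depended on the tool. Jag1 is the gene with the 5 heptamer matches printed above. Among the other genes with matches, Notch1 (4 matches) had a log2 fold change of −0.23, Krt7 (4) of 0.20 and Sox9 (1) of −1.18. Any part of the heptamer in these levels was not tested.

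The 2 Notch targets varied widely within both groups. Hes1 (chromosome 16, 30064384 to 30067796), a transcriptional repressor and a direct target of Notch, had 7.18, 3.25, 9.88 and 7.06 CPM in the control libraries. It had 8.23, 2.21, 5.43 and 4.04 CPM in the knockout libraries. The highest library was 3.04 times the lowest among controls and 3.73 times among knockouts, and replicate 2 was the lowest in both groups. Hes1 thus had a log2 fold change of −0.46 (SE 0.43, adjusted p = 0.581). Its 95% interval of −1.44 to 0.53 was the one interval of the other 8 genes that reached the −1.18 of Sox9. Hey1 (chromosome 3, 8663359 to 8667256), a related repressor that is prominent in endothelium, had 0.388, 0.379, 0.473 and 0.738 CPM in the control libraries. It had 0.55, 0.201, 0.521 and 0.915 CPM in the knockout libraries (0.15, SE 0.42, adjusted p = 0.869), on 23 to 122 counts per library. The groups overlapped for both targets.

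**Figure D3:**
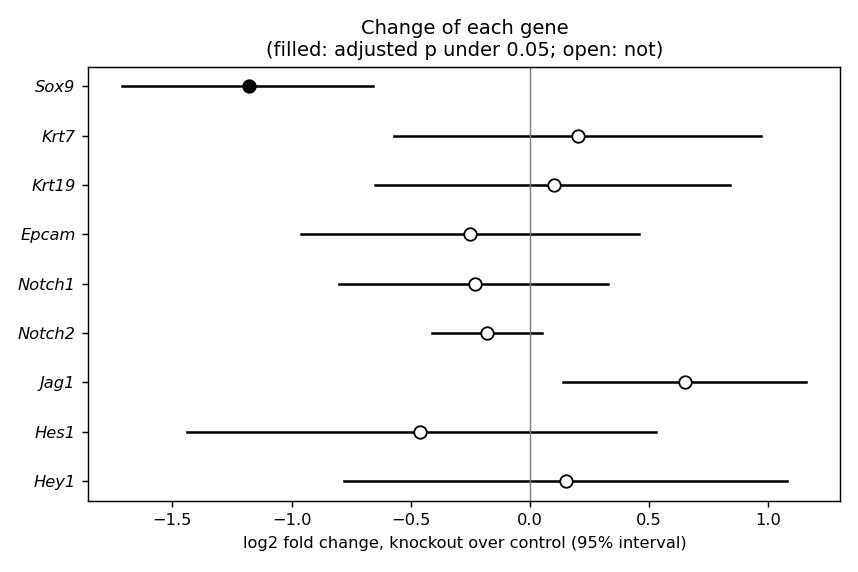
Log2 fold change of each gene, knockout over control (horizontal axis), with its approximate 95% interval as a line. Sox9 (filled, adjusted p = 0.0242) is the one gene past the threshold, and the intervals of 7 of the other 8 genes lie above its value of −1.18, with Hes1 the exception.

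Because a p-value above the threshold in one gene does not show that it differs from Sox9, the difference itself was tested inside each library as the ratio of Sox9 counts to those of each other gene. This ratio does not depend on library scaling. The 8 ratios share Sox9 as numerator, and each was compared between groups with an exact two-sided permutation test over 70 assignments, whose smallest p is 0.0286. The Sox9 to Jag1 ratio was 1.16 to 1.70 in the control and 0.218 to 1.01 in the knockout libraries, a difference of −1.86 on the log2 scale (exact p = 0.0286). The groups were also separate for the ratios to Notch1 (difference −0.97) and Notch2 (−1.07), each with exact p = 0.0286. For Krt19 the ratio went from 20.8 to 8.99 (geometric means, difference −1.21, exact p = 0.0857), with 21.2 in knockout library 1 inside the control range of 17.3 to 25.1 and 4.53, 4.95 and 13.7 in the others. Differences were −1.31 for Krt7 and −0.96 for Epcam (both exact p = 0.114), −1.25 for Hey1 (exact p = 0.0857) and −0.73 for Hes1 (exact p = 0.229). Sox9 was made the numerator because its fall in these data was known, and it had the lowest log2 fold change of the 9 genes. That all 8 differences were below 0 follows from this choice and is no separate result. The exact p-values carry the same selection. With Benjamini-Hochberg adjustment over the 8 ratios the lowest value was 0.0763, so none passed at 0.05. Within same-numbered pairs of libraries an exact sign-flip test cannot go below 0.125.

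No bile duct gene outside the 9 passed the edgeR test. Of 22 further duct genes 19 were tested, and 0 were higher and 0 lower by edgeR (3 at an unadjusted p under 0.05, and 0 higher and 1 lower by DESeq2). Their median log2 fold change was −0.11 against −0.01 for all tested genes, and 13 of the 19 were below 0 (14 with total counts alone). The lowest adjusted p was that of Pkhd1, the fibrocystin gene of duct cell cilia, with 11.7 ± 1.21 and 9.32 ± 0.702 CPM (−0.33, SE 0.10, adjusted p = 0.0844). All 4 knockout libraries of Pkhd1 were below every control library, as in 7.93% of all tested genes. Cldn4 and Sctr, with 0 to 18 counts per library, were among the 3 genes that were not tested. The 22 genes summed to 193.5 to 213.5 CPM in the control and 172.7 to 240.1 CPM in the knockout libraries. Most of this sum was Onecut2, a transcription factor gene, with 114.6 ± 14.5 and 131.0 ± 23.2 CPM (0.19, adjusted p = 0.439), so the sum says little of the other duct genes.

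In the rest of the Notch pathway, 27 of 28 receptor, ligand and processing genes were tested, and 1 was lower and 0 higher. This was 3.7% of the tested genes of this list, against 5.39% of all tested genes (1.88% lower). Aph1a, a subunit of the gamma-secretase complex that cleaves the receptors, had 56.6 to 69.3 CPM in the control libraries and 45 to 46.6 CPM in the knockout libraries. The fall in the mean was from 63.3 ± 5.42 to 45.6 ± 0.687 CPM (−0.47, SE 0.07, adjusted p = 0.00862). Aph1a passed in all 8 fits that left out 1 library. The complex subunit genes Psen2, Ncstn and Psenen did not pass, with log2 fold changes of −0.11, −0.05 and −0.15. The ligand gene Dll1 had 5.47 ± 1.08 and 3.7 ± 0.227 CPM with groups that did not overlap (−0.56, SE 0.15, adjusted p = 0.0546). The endothelial receptor gene Notch4 also had groups that did not overlap, with 4.27 to 4.71 and 5.16 to 5.82 CPM (0.25, SE 0.10, adjusted p = 0.164). Groups did not overlap in 15.1% of all tested genes. Notch3, the receptor of mural cells, had 3.02 ± 0.448 and 3.52 ± 0.339 CPM (adjusted p = 0.4), and the endothelial ligand gene Dll4 had 4.48 ± 1.23 and 5.42 ± 0.768 CPM (adjusted p = 0.439). Rbpj, the DNA-binding partner of the receptors, had 15.5 ± 1.3 and 13.9 ± 1.37 CPM (−0.15, adjusted p = 0.387). Jag2 had 0.131 ± 0.0585 CPM in the control group, and Dll3 had 0 counts in all 8 libraries.

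Further Notch targets and the YAP pathway, which also acts on Sox9 in liver, held no gene that passed the edgeR test. Of 8 further targets 7 were tested, their median change being 0.05 (log2), with 0 genes at an unadjusted p under 0.05 (also 0 by DESeq2). Nrarp, a feedback inhibitor that is induced by Notch, had 1.48 ± 0.232 and 1.79 ± 0.276 CPM (0.28, SE 0.18, adjusted p = 0.409). Myc had 5.13 ± 2.15 and 13.5 ± 11.9 CPM (1.39, SE 0.75, adjusted p = 0.336). Of 12 YAP pathway genes and targets, all tested, 0 passed (2 at an unadjusted p under 0.05, 0 by DESeq2), and with the replicate number as a block 1 was lower. That gene was Ccn1, a matricellular protein gene, with 11.8 ± 2.2 and 7.17 ± 3.17 CPM (−0.71, SE 0.30), and its adjusted p was 0.205 without the block and 0.0234 with it. Ankrd1 had 0.103 ± 0.0126 and 0.191 ± 0.0662 CPM (0.89, SE 0.35, adjusted p = 0.175).

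**Figure D4:**
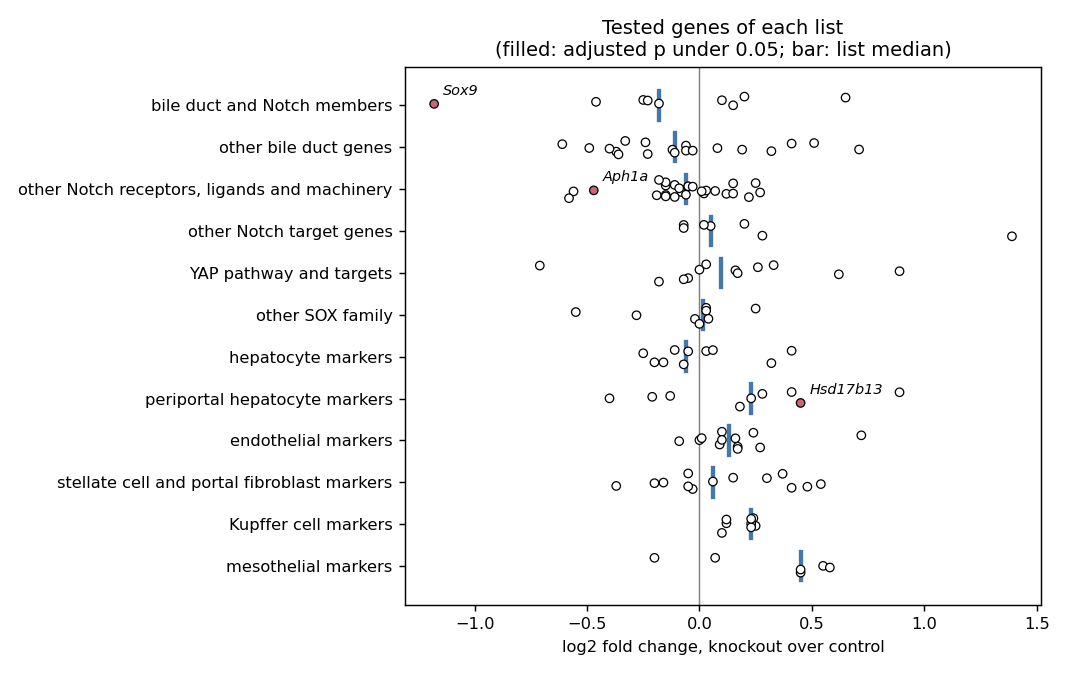
Log2 fold change, knockout over control (horizontal axis), of each tested gene in the 9 genes and in 11 further lists (rows), with a blue bar for the list median and filled points for adjusted p under 0.05. Sox9, Aph1a and Hsd17b13 are the 3 genes past the threshold.

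Markers of other liver cells were read beside these results, since Sox9, Notch and Jag1 transcripts come from several cell types. Of 10 periportal hepatocyte markers 9 were tested and 1 was higher, Hsd17b13, a lipid droplet enzyme, from 222.2 ± 20.9 to 304.6 ± 27.3 CPM (0.45, SE 0.09, adjusted p = 0.0237). This call was lost in 4 of 8 fits without 1 library, those without control replicate 2 or knockout replicate 1, 2 or 3, with an adjusted p of up to 0.0596. Periportal markers summed to 3225 to 5240.1 CPM in the control and 5161 to 6953.4 CPM in the knockout libraries. The difference in this sum was mostly Pck1, a gluconeogenic enzyme gene, with 1747.5 ± 726.8 and 3234.7 ± 921.2 CPM (0.89, SE 0.33, adjusted p = 0.159). Of the 9 tested markers 6 were above 0 and 3 below. The 1 that passed was 11.1% of them, against 5.39% of all tested genes. Gls2 (−0.21, adjusted p = 0.11) and Cdh1 (−0.40, adjusted p = 0.172) had all 4 knockout libraries below every control library, as had 7.93% of all tested genes. Hsd17b13 had all 4 knockout libraries above every control library, and groups did not overlap in 15.1% of all tested genes. The tenth marker, Ass1, had 2 to 7 counts per library and was not tested. The annotation used for counting is not stated, so these counts are not read as the level of Ass1 in liver. Endothelial markers (12 tested) had 0 passing genes by edgeR, 2 at an unadjusted p under 0.05 and 1 higher by DESeq2. Lyve1, a receptor of sinusoidal endothelium, had 12.6 ± 3.79 and 20.7 ± 0.926 CPM (0.72, SE 0.18), and its adjusted p was 0.0549 without and 0.0231 with the replicate block. Their sums were 314.7 to 428.7 CPM in the control and 333.2 to 456.2 CPM in the knockout libraries. Stellate cell and portal fibroblast markers (13 tested), which include the portal cells that carry JAG1, had 0 passing genes, 0 at an unadjusted p under 0.05 and 0 by DESeq2. Col3a1, a fibrillar collagen gene, had 60.6 ± 15.7 and 84.4 ± 22.8 CPM (adjusted p = 0.268). The sums of this list were 336.9 to 474.9 and 398.5 to 596.5 CPM. Kupffer cell markers (8 tested) had 0 passing genes, 0 at an unadjusted p under 0.05 and 0 by DESeq2, with sums of 137.6 to 190.7 and 110.1 to 300.3 CPM. Of 10 hepatocyte markers 0 passed by edgeR, 2 were at an unadjusted p under 0.05, and 2 were higher by DESeq2. Ttr, the transthyretin gene, had 2380.9 ± 311.6 and 3159.7 ± 282.7 CPM (0.41, SE 0.11), with an adjusted p of 0.0643 without and 0.0351 with the block. Hepatocyte markers summed to 71183.7 to 76549.8 CPM in the control and 82835.4 to 93346.8 CPM in the knockout libraries, sums that did not overlap. Alb, the albumin gene, made up most of this sum, with 57566.4 ± 3580.1 and 71671.7 ± 4025.2 CPM (0.32, adjusted p = 0.0856). Of the 10 markers 6 were below 0 (8 with total counts alone), and their median was −0.06. The part of these cell types in the Sox9 and Jag1 values was not tested.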

How the data were processed

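RNA-seq of 8 liver libraries was used, with groups and replicate numbers taken from the sample titles. The authors deposited raw counts per gene symbol and a gene length in bases, and each column was assigned through the library code in the sample descriptions. The genome build was mm10 per the submitters' processing notes. The sources used here name no aligner, counter, annotation or strand setting. Genes were kept by filterByExpr (14861 of 25239), scaled by TMM and tested with edgeR 4.0.16 (glmQLFit, robust, glmQLFTest) in R 4.3.3, which was tested on simulated data. SE is the size of the log2 fold change over the root of the F statistic, and 95% intervals built on it are approximate and not adjusted. Ratios had 0.5 counts added. Alternatives used limma 3.58.1 and DESeq2 1.42.0. In each library 67.4% to 70.8% of values from 1 to 20 were even. Libraries of 1 group differed by more than sampling noise. Genes alike to Sox9 were ranked on log2 CPM with 0.02 CPM added.

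The 9 genes, the further lists and the rule for named genes were chosen with earlier results of these data known. Named genes are the 9 genes, Zfp36l1, fixed Notch genes, the genes of each list that passed or else up to 2 with the lowest adjusted p (some are not reported here), and the genes most alike to Sox9 and Krt19. Psen2, Ncstn, Psenen, Sox5, Sox6, Sox13, Sox18, Onecut2, Pck1, Gls2, Cdh1, Ass1 and the other untested genes were added after their values were seen.

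Same-numbered libraries of both groups deviated together from their group means (correlations over genes of 0.17, 0.39, 0.31 and 0.4), and every library was matched best by its own number. The pairing comes from the data, not from the labels, and the replicate block was fitted as an alternative.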

Additional observations from a re-analysis of the deposited data

How the results depend on the processing

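Sox9 kept its direction in every fit, with log2 fold changes of −1.48 to −1.06 when 1 library was left out, and passed in the 8 other alternatives, including the replicate block (−1.24, adjusted p = 0.0236). Zfp36l1 passed throughout (−2.08 to −1.86 without 1 library). Among the 9 genes the count lower was 0 to 1 without 1 library, and the count higher was 1 by DESeq2 (Jag1). Krt19 changed sign with total counts alone (−0.01), limma voom (−0.03), the replicate block (−0.001), without knockout replicate 2 (−0.09) and without knockout replicate 3 (−0.13). Krt7 changed sign without knockout replicate 3 (−0.15) and Hey1 without knockout replicate 4 (−0.22), and none of these passed. The widest values the other way without 1 library were 0.30 for Krt19, 0.43 for Krt7 and 0.42 for Hey1. The replicate block changed the call of none of the 9 genes and gave 653 higher and 375 lower genes in all.

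Total counts alone shifted the all-gene median by −0.113, with 392 genes higher and 1338 lower, against 521 and 280 with TMM. DESeq2 gave 1014 and 724, limma voom 830 and 604, and fits without 1 library 169 to 583 and 42 to 384. By list, total counts alone gave 2 lower further duct genes, 2 lower Notch pathway genes, 1 lower SOX gene and 1 lower periportal marker. DESeq2 gave 1, 2, 1 and 1 for these, and 2 higher hepatocyte, 2 higher periportal and 1 higher endothelial markers. Limma voom gave 2 lower Notch pathway genes and 1 higher hepatocyte and 1 higher endothelial marker. The replicate block gave 1 lower YAP gene, 1 higher hepatocyte and 1 higher endothelial marker, and the filter of 1 CPM in 4 libraries 1 higher endothelial marker. Without 1 library, endothelial, hepatocyte and periportal markers higher were each 0 to 1 and Notch pathway genes lower 1 to 2.

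The log2 differences of the Sox9 ratios stayed below 0 in all settings, which the choice of Sox9 as numerator favours. They were −2.28 to −1.54 for Jag1 and −0.97 to −0.32 for Hes1 without 1 library. A count of 3 corresponds to 0.0213 to 0.0286 CPM, and floors cover counting error only.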

Other observations

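Among the other genes of the SOX family, 8 of 11 were tested and 0 passed by edgeR (1 at an unadjusted p under 0.05, and 0 higher and 1 lower by DESeq2). Their median log2 fold change was 0.02. Sox12 had 4.84 ± 1.12 CPM in the control and 3.3 ± 0.401 CPM in the knockout group, with groups that did not overlap (−0.55, SE 0.17, adjusted p = 0.0954). A lack of overlap occurred in 15.1% of all tested genes. Sox17, a transcription factor gene of endothelium, had 2.43 ± 0.21 and 2.89 ± 0.257 CPM (0.25, SE 0.13, adjusted p = 0.291). In knockout livers Sox5 (2.85 ± 0.374 CPM per kilobase), Sox6 (2.35 ± 0.168), Sox13 (4.28 ± 0.183) and Sox18 (1.75 ± 0.338) had higher mean levels than Sox9 (1.25 ± 0.478). Their log2 fold changes were −0.28, −0.02, 0.03 and 0.04. In control livers the means of Sox5 (3.46 ± 1.01) and Sox13 (4.19 ± 0.602) were already above that of Sox9 (2.83 ± 0.406). Those of Sox6 (2.39 ± 0.273) and Sox18 (1.70 ± 0.266) were below it. The order of these genes was not tested. Sox8 and Sox10, the closest paralogs of Sox9, were not tested for lack of counts.

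The genes whose profiles over the 8 libraries were most like that of Sox9 were Ttc21b, a gene of ciliary transport (root mean square difference of centred log2 CPM 0.28), Sertad3 (0.28), the histone gene H2bc21 (0.29), Pcyox1l (0.29) and Kantr (0.30), out of 11386 genes with a mean of at least 1 CPM. Ttc21b went from 3.91 ± 0.352 to 1.97 ± 0.402 CPM (log2 fold change −0.99, adjusted p = 0.0139). Since these genes were picked by their likeness to Sox9 over both groups, their lower knockout levels follow from the choice and are no separate result. Krt7, Krt19, Epcam and Hey1 were below 1 CPM in every library and could not enter this ranking. Notch1, Notch2, Jag1 and Hes1 could enter it and were not among the genes named. Notch1 was the closest of the other 8 at 0.59, with 7.75% of the genes closer, and Jag1 the farthest at 1.10, with 96.4% closer. Most like Krt19 were Gstt3 (0.18), Chchd6 (0.25) and Zfp982 (0.27), in a ranking that the limit of 1 CPM kept Krt7 and Epcam out of. Krt7 stood at 0.32 from Krt19, with 0.29% of the genes closer, and Epcam at 0.36, with 1.86% closer. Sox9 stood at 0.91, with 97.4% closer.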
